A study of Mus musculus with 12 samples.

Results

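Genes of the endoplasmic reticulum (ER) stress and ATF4 responses were compared in whole kidneys of WT and Tet2-/- mice before and after ischemia-reperfusion (IR). The 10 genes, Hspa5, Sdf2l1, Dnajb9, Herpud1, Xbp1, Atf4, Ddit3, Trib3, Asns and Chac1, were taken by name from the 24421 gene symbols in the deposited tables. Where the tables list 2 transcripts, the one with more counts in all was used, which was the case for Hspa5, Xbp1, Atf4 and Ddit3. All 10 passed the filter on low counts in every comparison. The samples were 12 RNA-seq libraries of total RNA in 4 groups of 3, each from the kidney of a male C57BL/6 mouse at 6 weeks old. The baseline groups were WT and Tet2-/- mice without an operation. In the IR groups, WT and Tet2-/- mice had the right renal pedicle clamped for 60 min and the left kidney removed, and the right kidney was taken 24 h later. Sham-operated kidneys were not analysed here, so surgery, loss of the other kidney and ischemia cannot be told apart in the IR effect. The Tet2-/- mice came from Tet2+/- breeding pairs, so by label the blood cells in a kidney have the same genotype as the tubules.

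After IR, the libraries labelled Tet2-/- had less mRNA of the ER quality control genes Herpud1 and Sdf2l1, at 0.41 and 0.46 of the WT level. Hspa5 was at 0.51, within the 2-fold limit, and passed on adjusted p alone. None of the 10 genes was called there by edgeR without WT IR replicate 1, WT IR replicate 3 or Tet2-/- IR replicate 1. Herpud1 fell with IR in both genotypes, to 0.43 of its baseline level in WT and to 0.14 in the libraries labelled Tet2-/-, and this difference between genotypes passed its own test. The call in WT was lost with any 1 library left out (edgeR's adjusted p from 0.0574 to 0.156). The fit without both WT baseline replicates 2 and 3 leaves 1 WT baseline library, so only the direction of the difference between genotypes is given for it, which stayed the same. Trib3, Asns and Chac1, targets of ATF4, rose 2.79- to 4.14-fold with IR in the libraries labelled Tet2-/-. In WT kidneys Asns, Trib3 and Chac1 rose 3.25-, 2.82- and 1.39-fold with IR (edgeR's adjusted p = 0.0711, 0.165 and 0.672). A difference in the IR effect between genotypes was not shown for these genes (edgeR's adjusted p = 0.854, 0.612 and 0.378). After IR, the same 3 genes were 1.89- to 4.10-fold higher in the libraries labelled Tet2-/- than in WT kidneys. None of the 3 was called there by edgeR, while DESeq2 called Trib3 and Chac1. Dnajb9, Xbp1 and Ddit3 passed in no comparison.

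As background, proteins that cannot fold in the ER set off the unfolded protein response, which has 3 sensors in the ER membrane. ATF6 and IRE1 (gene Ern1) raise the transcription of chaperones and of genes for ER-associated degradation (ERAD), IRE1 by splicing the mRNA of Xbp1. PERK phosphorylates the initiation factor eIF2alpha, as do other kinases that sense a lack of amino acids, viral RNA or heme, and this lowers translation in general while ATF4 protein is made. ATF4 in turn raises genes for amino acid synthesis and transport, and with longer stress the factor CHOP (gene Ddit3). In the kidney, the proximal tubule has a high demand for energy and is the segment most sensitive to ischemia.

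The regulatory sequences known from these genes are short, and the promoters of 5 of them show where the letters lie. The promoters are from RefSeq on GRCm38.p6, run from 250 bases before to 50 bases after the gene's start on the gene's own strand, and were found for all 10 genes. The ER stress response element (ERSE, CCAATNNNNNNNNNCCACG) was searched on both strands, and 39 of 32851 promoters (0.119%) held it, with Hspa5 as the only one of the 10 genes. The related ERSE-II (ATTGGNCCACG) was held by 12 promoters (0.0365%) and by Herpud1 alone of the 10. Both share the letters CCACG but are spaced differently, and no stretch counts for both. The 2 promoters are shown because these genes differed after IR, with the element in capitals, and in Herpud1 also a C/EBP-ATF element. Hspa5 lies at chr2:34771840-34772139 on the plus strand and its element at positions -65 to -47 from the start. Herpud1 lies at chr8:94386179-94386478 on the plus strand, with ERSE-II at positions -52 to -42 and the C/EBP-ATF element at -112 to -105.
Hspa5: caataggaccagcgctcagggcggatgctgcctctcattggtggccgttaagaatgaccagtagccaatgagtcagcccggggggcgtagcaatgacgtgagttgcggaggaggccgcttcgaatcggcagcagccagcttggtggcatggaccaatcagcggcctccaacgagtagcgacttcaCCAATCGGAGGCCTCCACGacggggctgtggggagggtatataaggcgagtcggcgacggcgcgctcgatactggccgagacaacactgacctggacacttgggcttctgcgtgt
Herpud1: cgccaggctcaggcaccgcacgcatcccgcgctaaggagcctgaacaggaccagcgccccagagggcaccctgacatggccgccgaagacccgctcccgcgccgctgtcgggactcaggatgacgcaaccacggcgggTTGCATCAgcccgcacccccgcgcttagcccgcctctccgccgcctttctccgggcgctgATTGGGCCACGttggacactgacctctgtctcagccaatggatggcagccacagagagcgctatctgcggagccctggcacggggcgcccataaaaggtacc

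The C/EBP-ATF element (CARE, TGATGNAA), to which ATF4 binds with a C/EBP partner, was searched in the same way and was held by 1304 promoters (3.97%). Of the 10 genes, 4 held it, Herpud1 and the 3 ATF4 targets Trib3, Asns and Chac1. The windows of these targets are shown because the 3 genes were called higher with IR in the libraries labelled Tet2-/-, again with the element in capitals. It lay on the gene's strand in Asns, at positions -23 to -16 of a window at chr6:7693160-7693459 on the minus strand. It lay on the opposite strand in Trib3, at positions 15 to 22 after the start in chr2:152344011-152344310 on the minus strand, and in Chac1, at positions -193 to -186 in chr2:119350992-119351291 on the plus strand.
Trib3: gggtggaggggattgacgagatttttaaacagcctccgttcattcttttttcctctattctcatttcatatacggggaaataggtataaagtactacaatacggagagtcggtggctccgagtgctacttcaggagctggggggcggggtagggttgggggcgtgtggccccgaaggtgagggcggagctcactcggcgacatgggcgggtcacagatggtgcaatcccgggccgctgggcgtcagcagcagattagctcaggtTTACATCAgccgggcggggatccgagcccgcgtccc
Asns: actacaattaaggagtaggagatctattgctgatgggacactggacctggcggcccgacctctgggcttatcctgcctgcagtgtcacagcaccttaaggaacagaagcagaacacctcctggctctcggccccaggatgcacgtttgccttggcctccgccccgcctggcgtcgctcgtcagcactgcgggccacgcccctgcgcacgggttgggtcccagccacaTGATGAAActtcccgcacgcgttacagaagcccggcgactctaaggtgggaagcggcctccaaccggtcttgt
Chac1: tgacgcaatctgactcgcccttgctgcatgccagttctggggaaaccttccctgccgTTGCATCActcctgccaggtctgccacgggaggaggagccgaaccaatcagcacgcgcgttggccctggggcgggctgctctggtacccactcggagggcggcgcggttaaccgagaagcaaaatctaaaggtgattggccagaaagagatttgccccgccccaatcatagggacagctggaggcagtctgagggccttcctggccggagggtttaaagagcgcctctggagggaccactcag

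The XBP1 and ATF6 element (UPRE, TGACGTGG) was in 222 promoters (0.676%) and in none of the 10 windows. A match of letters is a description of the window and not a measured binding site.

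Total counts per library, in units of 1e+06, ran from 51.01 to 108, and the lowest count of any of the 10 genes in a library was 56 (Chac1, WT IR replicate 1). The 12 libraries are treated as separate mice. Tet2 mRNA itself was not lower in Tet2-/- than in WT libraries at baseline (9.24, 16.6 and 10.3 FPKM against 9.15, 6.25 and 7.33 FPKM). After IR it was 2.64, 3.20 and 1.76 FPKM in Tet2-/- and 9.34, 3.97 and 3.86 FPKM in WT libraries, which did not overlap (log2 fold change -1.28, edgeR's adjusted p = 0.0690). Which part of Tet2 the allele removes is not in the labels, so these values cannot tell whether a library is a knockout. Because Tet2 mRNA was not lower at baseline, directions between genotypes are given by the labels, as libraries labelled Tet2-/-. In WT baseline replicates 2 and 3 and Tet2-/- IR replicate 3, 8 adipocyte markers summed to 57.0, 176.1 and 166.5 FPKM, against 2.78 to 8.55 FPKM in the other 9 libraries. Of the 10 proximal tubule markers, Kap alone made 90.5% to 97.0% of the summed FPKM of a library, and the other 9 summed to 2273 to 2950 FPKM at baseline, 1682 to 2113 FPKM in WT IR and 623 to 877.5 FPKM in Tet2-/- IR libraries. Neutrophil markers, 7 genes, summed to 74.1 to 130.8 FPKM in Tet2-/- IR libraries and to 3.89 to 9.10 FPKM in WT IR libraries. The 6 macrophage markers did not move as one. Cd14 had 31.9 to 50.9 FPKM in Tet2-/- IR and 4.89 to 15.1 FPKM in WT IR libraries, Csf1r had 2.21 to 6.93 against 4.93 to 15.9 FPKM, and the sum of all 6 was 47.7 to 73.1 against 23.99 to 33.4 FPKM. In a whole kidney, fewer cells of a type and less RNA per cell cannot be told apart.

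Levels were compared between genes as FPKM, fragments per kilobase of transcript and per library size, which divides by length. Each gene is given with the transcript used and its mm9 position. Of the chaperone group, Hspa5 (NM_022310, chr2:34627610-34632049, plus strand) encodes BiP, the main Hsp70 chaperone of the ER lumen, which also holds the 3 sensors inactive. Its FPKM was 213.4, 200.6 and 215.2 in WT baseline, 152.7, 286.8 and 195.1 in Tet2-/- baseline, 241.2, 256.0 and 254.8 in WT IR and 154.2, 147.5 and 110.2 in Tet2-/- IR replicates 1, 2 and 3. All 3 WT IR libraries were above the WT baseline libraries, while the Tet2-/- IR libraries were below every WT library. Group means were 209.7 ± 7.98, 211.5 ± 68.5, 250.7 ± 8.22 and 137.3 ± 23.7 (SD, n = 3), in the same order of groups.

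Sdf2l1 (NM_022324, chr16:17130231-17132476, minus strand), a partner of the BiP chaperone complex, had a lower level in the same order of groups as Hspa5. Its FPKM was 8.28, 9.08 and 10.1 for the WT baseline libraries, 5.97, 17.7 and 7.52 for Tet2-/- baseline, 15.6, 12.2 and 12.7 for WT IR and 5.67, 9.51 and 5.13 for Tet2-/- IR. The lowest WT IR library was above the highest Tet2-/- IR library, and Tet2-/- baseline replicate 2 was the highest of all 12 libraries for Sdf2l1 as for Hspa5. Dnajb9 (NM_013760, chr12:45306884-45311055, minus strand), or ERdj4, a J-domain co-chaperone of BiP that is induced by spliced XBP1, did not share this order. It had 16.9, 14.7 and 17.5 FPKM in WT baseline, 11.1, 14.8 and 11.9 in Tet2-/- baseline, 14.6, 20.8 and 22.4 in WT IR and 24.6, 16.5 and 25.2 in Tet2-/- IR libraries, so that both IR groups overlapped.

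Herpud1 (NM_022331, chr8:96910400-96919258, plus strand), an ER membrane protein that assembles the ERAD ubiquitin ligase complex, is among the most abundant of the 10 mRNAs at baseline and had the widest range of the ER quality control genes, with a highest over lowest library of 9.01. Its FPKM was 291.3, 223.2 and 166.5 in WT baseline and 238.0, 257.1 and 294.8 in Tet2-/- baseline libraries. The IR libraries had 114.6, 87.5 and 104.4 for WT, but only 32.7, 53.0 and 50.8 for Tet2-/-. Neither IR group reached the lowest baseline library, and no Tet2-/- IR library reached the lowest WT IR library. Its mean was 227.0 ± 62.5 and 263.3 ± 28.9 FPKM at baseline and 102.2 ± 13.7 and 45.5 ± 11.1 FPKM after IR (SD, n = 3, WT first).

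Xbp1 (NM_013842, chr11:5420644-5425996, plus strand) encodes the factor that IRE1 activates by removing 26 bases from its mRNA. Its FPKM was 58.1, 66.0 and 59.9 in WT baseline, 44.6, 60.3 and 56.0 in Tet2-/- baseline, 62.9, 100.6 and 73.1 in WT IR and 95.3, 79.5 and 72.8 in Tet2-/- IR libraries. The IR groups overlapped, and all Tet2-/- IR libraries were above the Tet2-/- baseline libraries. The removed bases, in capitals with their neighbours in the coding sequence, lie at chr11:5424282-5424307 on the plus strand of mm9, and are shown because the deposited counts cannot follow their splicing.
Xbp1: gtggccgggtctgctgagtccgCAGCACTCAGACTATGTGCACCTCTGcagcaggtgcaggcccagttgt
The tables list a transcript of 2240 bases and one of 2213 bases at this locus. Reads are shared between both, and the count of the longer exceeded that of the shorter by only 0.697% to 1.25% in the libraries for Xbp1 (group means 0.946% and 0.862% at baseline and 1.13% and 1.01% after IR, WT first), close to the 1.21% by which the lengths differ.

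**Figure D1:**
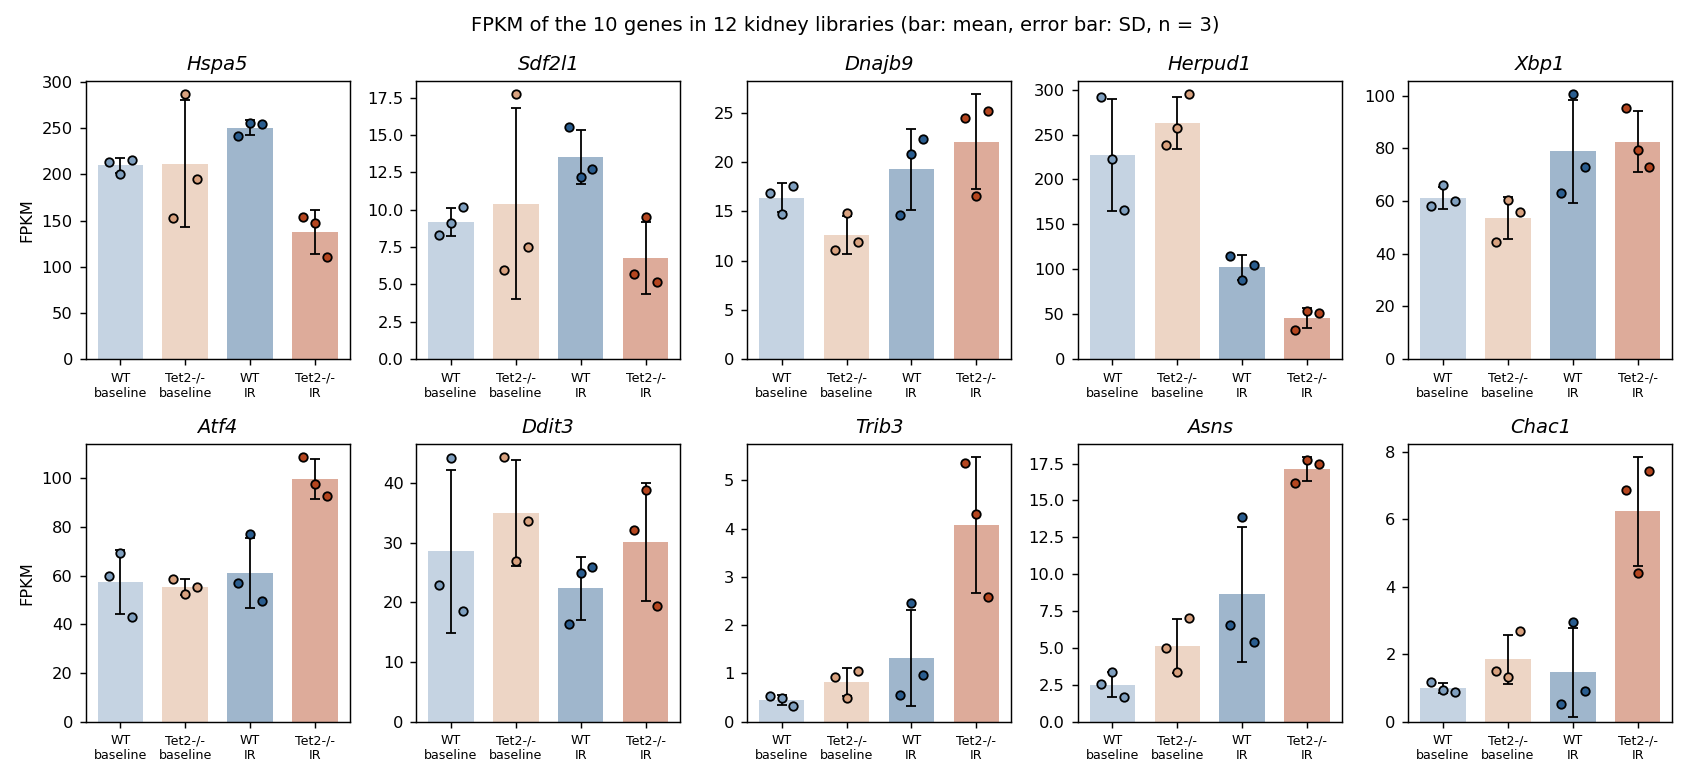
FPKM of each of the 10 genes on its own linear axis from 0, with points for the 3 libraries of WT baseline, Tet2-/- baseline, WT IR and Tet2-/- IR, bars for the mean and error bars for the SD. Herpud1 is lowest in the 3 Tet2-/- IR libraries (32.7 to 53.0 FPKM), while Asns is highest there (16.2 to 17.7 FPKM).

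Atf4 (NM_009716, chr15:80085614-80087975, plus strand) encodes the factor at the centre of the integrated stress response, whose activity is set largely by translation, which these libraries do not measure. Its FPKM was 59.8, 69.5 and 43.2 in WT baseline, 58.8, 52.4 and 55.2 in Tet2-/- baseline, 57.0, 77.0 and 49.5 in WT IR and 108.8, 97.6 and 92.7 in Tet2-/- IR libraries. All 3 Tet2-/- IR libraries were above all other 9, and the other groups overlapped. Ddit3 (NM_007837, chr10:126727849-126733344, plus strand), which encodes the pro-apoptotic factor CHOP, had 22.9, 44.1 and 18.6 FPKM in WT baseline, 44.3, 26.9 and 33.6 in Tet2-/- baseline, 16.3, 24.8 and 25.96 in WT IR and 32.1, 38.7 and 19.4 in Tet2-/- IR libraries, and the groups overlapped in each comparison made.

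Of the 10 genes, the ATF4 targets Trib3, Asns and Chac1 had the lowest mean levels in both baseline groups and the widest relative range over the 12 libraries. Trib3 (NM_175093, chr2:152163161-152169796, minus strand), a pseudokinase induced by ATF4 and CHOP, had 0.527, 0.482 and 0.334 FPKM in WT baseline, 0.933, 0.485 and 1.04 in Tet2-/- baseline, 0.556, 2.45 and 0.971 in WT IR and 5.36, 4.30 and 2.58 in Tet2-/- IR libraries. The lowest Tet2-/- IR library for Trib3 was above the highest library of the other groups, WT IR replicate 2, by a narrow margin (2.58 against 2.45 FPKM). Its highest library was 16.1 times its lowest.

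Asns (NM_012055, chr6:7625171-7643182, minus strand), asparagine synthetase, had 2.55, 3.37 and 1.64 FPKM in WT baseline, 4.99, 3.36 and 7.03 in Tet2-/- baseline, 6.58, 13.9 and 5.43 in WT IR and 16.2, 17.7 and 17.5 in Tet2-/- IR libraries. The WT IR libraries were all above WT baseline, and the Tet2-/- IR libraries were above all others. Chac1 (NM_026929, chr2:119176978-119180062, plus strand), which degrades glutathione, had 1.16, 0.943 and 0.884 FPKM in WT baseline, 1.51, 1.33 and 2.69 in Tet2-/- baseline, 0.515, 2.96 and 0.920 in WT IR and 6.86, 4.40 and 7.44 in Tet2-/- IR libraries. Here WT IR spanned both sides of WT baseline. WT IR replicate 2 was the highest WT library for Atf4, Xbp1, Trib3, Asns and Chac1.

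The order of mean FPKM at WT baseline was Herpud1, Hspa5, Xbp1, Atf4, Ddit3, Dnajb9, Sdf2l1, Asns, Chac1 and Trib3. The libraries of neighbours overlapped between Herpud1 and Hspa5, between Xbp1 and Atf4 and between Atf4 and Ddit3. All other neighbours were apart, such as Ddit3 (18.6 to 44.1 FPKM) and Dnajb9 (14.7 to 17.5 FPKM). In Tet2-/- IR the order began with Hspa5, Atf4, Xbp1 and then Herpud1, and the 3 libraries of Herpud1 were below all those of Xbp1.

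At baseline, the question was whether kidneys of Tet2-/- mice differ in these genes without injury. None of the 10 genes was called, that is, none had an adjusted p under 0.05 (edgeR's quasi-likelihood test, Benjamini-Hochberg over all genes) and an absolute log2 fold change over 1. Of all 16086 genes tested, 0.0124% were called higher and 0% lower. Asns, Chac1 and Trib3 had an unadjusted p under 0.05, with log2 fold changes of 1.12, 0.98 and 0.97 (standard errors 0.35, 0.32 and 0.35) and adjusted p of 0.313, 0.325 and 0.366 from edgeR, a limit that 1891 of all 16086 genes met in either direction. DESeq2 called 1 of the 10, Asns (adjusted p = 0.0441), beside 321 of all genes. For Asns and Chac1, the 3 Tet2-/- libraries did not overlap the WT libraries in TMM-normalised counts, which held upward for 7.93% of all genes. In FPKM, Asns did overlap, narrowly, with 3.355 in Tet2-/- baseline replicate 2 against 3.37 in WT baseline replicate 2. The other 7 genes had log2 fold changes between -0.29 (Dnajb9) and 0.38 (Ddit3).

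The IR effect in WT kidneys was tested on the WT baseline and WT IR libraries. Herpud1 fell by 1.21 on the log2 scale (standard error 0.23, edgeR's adjusted p = 0.0432), to 0.433 of its baseline level, and was the only called gene of the 10. Among all 16015 genes tested, 1.46% were called higher and 0.887% lower. For Asns the log2 fold change was 1.70 (standard error 0.39, edgeR's adjusted p = 0.0711) and for Trib3 1.49 (standard error 0.54, adjusted p = 0.165). With the replicate number as a block, Asns was also called (log2 fold change 1.65, adjusted p = 0.00715), which made 2 genes. Hspa5 and Sdf2l1 had log2 fold changes of 0.20 and 0.49 (edgeR's adjusted p = 0.443 and 0.140), and their groups did not overlap, with IR higher, which held for 14.8% of all genes in TMM-normalised counts.

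This call of Herpud1 was lost in each of the 6 fits with 1 library left out (0 called each time, edgeR's adjusted p 0.0574 to 0.156). Without both WT baseline libraries with adipocyte markers, which leaves 1 WT baseline library, its log2 fold change was -1.58. Herpud1 was lower in 3 of 3 WT IR libraries than in any baseline library, and in TMM-normalised counts 14.51% of all genes were likewise below WT baseline.

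In the libraries labelled Tet2-/-, 3 genes were called higher and 1 lower after IR, beside 12.7% of 16359 genes called higher and 11.6% called lower. Trib3 rose by a log2 fold change of 2.05 (standard error 0.38, edgeR's adjusted p = 0.00430), 4.14-fold. Chac1 rose by 1.51 (standard error 0.36, adjusted p = 0.0132) and Asns by 1.48 (standard error 0.26, adjusted p = 0.00363). Herpud1 fell by 2.79 on the log2 scale (standard error 0.23, adjusted p = 0.00022), to 0.144 of its baseline level.

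At an adjusted p under 0.05 with no fold change limit, Atf4 was also higher (log2 fold change 0.59, edgeR's adjusted p = 0.00931) and Hspa5 lower (log2 fold change -0.89, adjusted p = 0.0273). That rule made 4 of the 10 genes higher and 2 lower, beside 22.9% and 20.3% of all genes. Sdf2l1 had a log2 fold change of -0.90 (adjusted p = 0.120), with Tet2-/- baseline replicate 2 far above the other libraries. Dnajb9, Xbp1 and Ddit3 had log2 fold changes of 0.57, 0.36 and -0.49 and did not pass. Between 4 and 5 genes were called with each library left out, and Chac1 was not among them without Tet2-/- baseline replicate 1 (adjusted p = 0.0521). Without Tet2-/- IR replicate 3, which had adipocyte markers, 4 were called.

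After IR, the libraries labelled Tet2-/- were compared with WT IR libraries, which addresses how the genotype bears on the injured kidney. The paper reports higher serum creatinine and worse tubular damage after IR in Tet2-/- than in WT mice. Genotype and extent of injury therefore cannot be told apart in this comparison. Herpud1 was lower by a log2 fold change of -1.27 (standard error 0.23, edgeR's adjusted p = 0.0221) and Sdf2l1 by -1.11 (standard error 0.24, adjusted p = 0.0339). These 2 genes were called lower and none of the 10 higher by edgeR, beside 2.30% of 16186 genes called higher and 3.85% called lower. At an unadjusted p under 0.05 there were 7 of the 10, of which 4 were higher, beside 4671 of all genes in either direction. DESeq2 called 4 of the 10, with Trib3 and Chac1 higher, beside 1642 of all genes in either direction. Hspa5, at -0.98 (standard error 0.18, adjusted p = 0.0244), passed on adjusted p alone, a rule that 3.51% of all genes passed as higher and 6.17% as lower. Chac1, Trib3, Asns and Atf4 had log2 fold changes of 2.04, 1.54, 0.92 and 0.62 with edgeR's adjusted p of 0.0817, 0.113, 0.101 and 0.0585. For these 4 genes the 3 Tet2-/- libraries lay above all WT libraries, and for Herpud1, Hspa5 and Sdf2l1 below them, in TMM-normalised counts, which held for 17.5% and 18.5% of all genes.

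Single libraries moved this count. Without WT IR replicate 2, 6 of the 10 genes were called, with Hspa5 and Herpud1 and Sdf2l1 lower and Trib3 (log2 fold change 2.24, adjusted p = 0.0430), Asns (1.38, 0.0133) and Chac1 (2.97, 0.0251) higher. Without WT IR replicate 1, WT IR replicate 3 or Tet2-/- IR replicate 1, 0 were called, and without Tet2-/- IR replicate 2 or 3, 1 was called. The share of all genes called in these fits is not given here, so the counts have no background beside them. The log2 fold change of Herpud1 stayed between -1.42 and -1.08 in these 6 fits. In the same comparison 9 of 10 proximal tubule markers had negative log2 fold changes and 4 were called lower, while Kap had -0.36 and did not pass. Of the 6 tested neutrophil markers, 5 were called higher. The 4 podocyte markers summed to 40.7, 85.4 and 67.1 FPKM in Tet2-/- IR and 24.3, 23.8 and 3.10 FPKM in WT IR replicates 1, 2 and 3, so WT IR replicate 3 stood apart. Between genotypes after IR, 0 of these 4 were called by edgeR. All 4 were called higher with IR in the libraries labelled Tet2-/-, beside 12.7% of all genes. The part of any of these in the differences of the 10 genes was not tested.

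**Figure D2:**
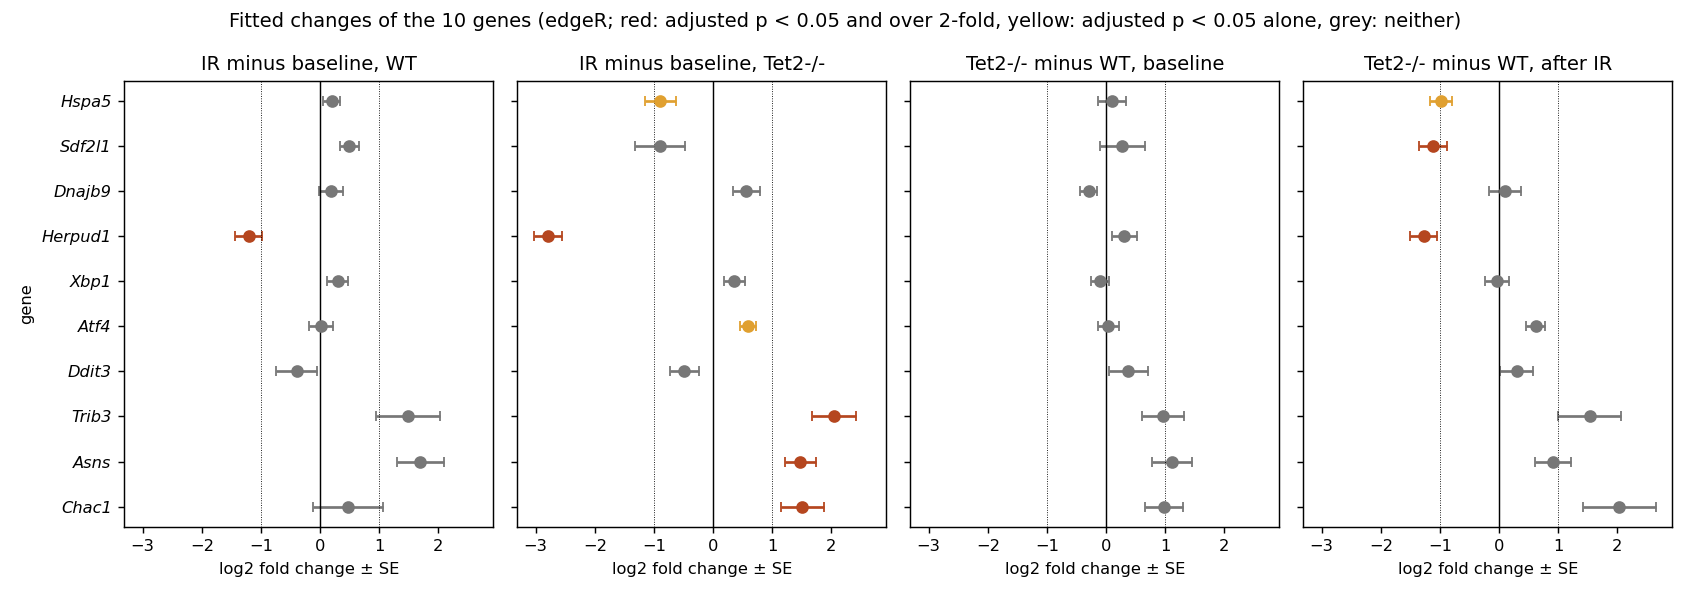
Fitted log2 fold change (edgeR) with its standard error for the 10 genes in 4 comparisons of 3 against 3 libraries, dotted lines at a change of 2-fold, colour by the outcome of the test. Herpud1 is left of -1 in both IR effects and after IR between genotypes, and Trib3, Asns and Chac1 pass in the Tet2-/- IR effect.

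Whether the IR effect itself differed between genotypes was tested as an interaction term fitted to the 12 libraries. An adjusted p under 0.05 was the only limit, and 9.18% of 16741 genes passed it. Herpud1 was the only one of the 10 genes (interaction log2 fold change -1.55, standard error 0.33, edgeR's adjusted p = 0.0172), so its fall with IR was larger in the libraries labelled Tet2-/-. The call held with each library left out in turn, and a second gene joined it without WT IR replicate 2 (Chac1, 2.04, adjusted p = 0.0410) and without Tet2-/- baseline replicate 1 (Hspa5, -1.24, adjusted p = 0.0300). Without both WT baseline replicates 2 and 3, which leaves 1 WT baseline library, the interaction log2 fold change of Herpud1 was -1.23. Hspa5 (-1.04, adjusted p = 0.0539) and Sdf2l1 (-1.36, adjusted p = 0.104) did not pass. With the replicate block Sdf2l1 passed (-1.22, adjusted p = 0.0332), which made 2 genes. For Asns, Trib3 and Chac1 the interaction was -0.18, 0.60 and 1.08 (adjusted p = 0.854, 0.612 and 0.378), so a larger IR effect in the libraries labelled Tet2-/- was not shown for these targets.

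Other genes of the same pathways were taken from lists that leave out the 10 genes. The ER chaperone and folding enzyme list has 29 genes, all tested. After IR between genotypes none was called by edgeR or DESeq2. By edgeR, 17 were lower and 0 higher at an unadjusted p under 0.05, a limit that 4671 of all 16186 genes met in either direction. At an adjusted p under 0.05 alone, 8 were lower and 0 higher, beside 6.17% and 3.51% of all genes, with a list median log2 fold change of -0.42 against 0.04 over all genes, and 26 of 29 genes had a negative value. The 8 genes, named after their values were seen, were Hsp90b1 (Grp94, the Hsp90 of the ER), the lectin chaperone Calr, the disulfide isomerases Pdia3, Pdia4 and Pdia6, the BiP partners Hyou1 and Dnajc3, and Manf, a secreted ER stress protein. Calr had 385.2 ± 57.5 FPKM in WT IR and 208.2 ± 27.4 FPKM in Tet2-/- IR libraries (SD, n = 3), and Hsp90b1 had 186.8 ± 14.7 and 106.9 ± 11.9 FPKM. Pdia4 had 61.7 ± 6.06 FPKM in WT IR and 34.0 ± 3.88 FPKM in Tet2-/- IR libraries. The count was 4 without Tet2-/- IR replicate 3 or WT IR replicate 2, and 1 without any of the other 4 libraries.

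With IR in the libraries labelled Tet2-/-, 2 chaperone genes were called lower, Sil1 (log2 fold change -1.09, the nucleotide exchange factor of BiP) and Calr (-1.06), beside 11.6% of all genes. At adjusted p alone 17 of 29 were lower against 1 higher, beside 20.3% and 22.9% of all genes, with a median of -0.51 beside 0.04 over all genes. Leaving out Tet2-/- baseline replicate 2 or 3 or Tet2-/- IR replicate 1 left 10 lower, and leaving out Tet2-/- IR replicate 3 left 17. In WT kidneys 1 was called with IR by edgeR, Fkbp11, a prolyl isomerase, which rose by 1.15 (1 of 29 beside 1.46% of all genes), and the list median was 0.09. The interaction was called for 7 of 29 chaperone genes, all negative, beside 9.18% of all genes, led by Pdia4 (-1.20) and Calr (-1.18), with a list median of -0.54 against 0.10 over all genes. That count was 8 without Tet2-/- IR replicate 3, 2 without WT IR replicate 3, and 3 without WT baseline replicate 1 or 3, Tet2-/- baseline replicate 2 or 3, WT IR replicate 1 or Tet2-/- IR replicate 1. The fit without both WT baseline replicates 2 and 3 leaves 1 WT baseline library, so no count is given for it.

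In the ERAD list, 25 genes, Derl3, which encodes a channel component, was called lower between genotypes after IR (log2 fold change -1.93, 0.285 ± 0.0436 FPKM in Tet2-/- IR against 1.01 ± 0.361 in WT IR), 1 gene of 25 beside 3.85% of all genes. With IR in the libraries labelled Tet2-/-, Derl3 fell by 2.37 and Rnf5, a ubiquitin ligase, by 1.38 on the log2 scale, 2 of 25 beside 11.6% of all genes. No ERAD gene was called with IR in WT kidneys by edgeR or DESeq2. There 1 of 25 had an unadjusted p under 0.05 by edgeR, beside 3640 of all 16015 genes. The interaction was called for Derl3 (-2.83), Rnf5 (-1.16) and, upward, Ube2g2 (0.72), 3 of 25 beside 9.18% of all genes. Of 30 genes of the translocon and of export from the ER, 3 rose and 1 fell with IR in the libraries labelled Tet2-/-, shares below the 12.7% and 11.6% of all genes. Spcs3, a signal peptidase subunit, rose by 2.16 and the retrieval receptor Kdelr3 by 1.33, while Sec11a, another signal peptidase subunit, fell by 1.19. After IR, Kdelr3 alone was called between genotypes (1.03), 1 of 30 beside 2.30% of all genes called higher, and the only call of this list in the interaction was Arfgap3 (-0.74), 1 of 30 beside 9.18% of all genes.

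The list of ATF4 stress targets holds 34 genes besides the 10. In the libraries labelled Tet2-/-, 13 rose and 3 fell with IR, beside 12.7% and 11.6% of all genes, and the list median was 0.83 against 0.04 over all genes. Slc7a11, the cystine transporter, rose by 3.82, from 0.0783 ± 0.0194 to 1.35 ± 0.274 FPKM, and the secreted stress factor Gdf15 by 3.46, from 11.5 ± 4.38 to 149.0 ± 59.1 FPKM. Cbs, cystathionine beta-synthase, fell by 3.07 on the log2 scale, and Ddit4, an inhibitor of mTORC1, by 2.33. In WT kidneys 3 of 33 tested genes rose with IR, among them the alanine transaminase Gpt2 (1.59) and Fam129a (1.52), and Cbs fell by 1.22, beside 1.46% of all genes called higher and 0.887% lower.

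Between genotypes after IR, 4 of 34 ATF4 targets were called higher and 2 lower, beside 2.30% and 3.85% of all genes, with a median of 0.62 and 27 of 34 values positive. Slc7a11 was higher by 2.79 and Eif4ebp1, the translation repressor 4E-BP1, by 1.63, at 105.3 ± 31.1 against 32.1 ± 12.1 FPKM. Cth and Cbs, which make cysteine from homocysteine, were lower by log2 fold changes of -1.95 and -1.50. The total of 6 was 3 without WT IR replicate 1 or without WT IR replicate 3. The interaction was called upward for 3 genes, led by Slc7a11 (2.95) and the amino acid transporter Slc38a2 (1.68), and downward for Cth (-2.09) and Cbs (-1.81), 5 of 34 beside 9.18% of all genes. The targets thus moved in both directions.

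Serine, proline and one-carbon synthesis, 14 genes, split likewise. With IR in the libraries labelled Tet2-/-, 4 rose and 3 fell, beside 12.7% and 11.6% of all genes. Psat1, an enzyme of serine synthesis, rose by 3.60 and Mthfd1l, a mitochondrial folate enzyme, by 3.27, while the serine hydroxymethyltransferases Shmt2 and Shmt1 fell by 1.54 and 1.21. Between genotypes after IR, Mthfd1l was higher by 1.96, and Shmt1 and Shmt2 were lower by log2 fold changes of -1.51 and -1.38, beside 2.30% and 3.85% of all genes. Without WT IR replicate 1, WT IR replicate 3 or Tet2-/- IR replicate 1 no gene of this list was called there by edgeR. The interaction was called upward for 3 genes, led by Mthfd1l (2.40) and Psat1 (2.34), and downward for 3, led by Shmt1 (-1.62) and Shmt2 (-1.34), 6 of 14 beside 9.18% of all genes. In WT kidneys, Mthfd2 alone was called with IR (1.84), 1 of 14 beside 1.46% of all genes called higher.

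The 24 genes of the cytosolic aminoacyl-tRNA synthetases and their partners, which ATF4 also raises, all had positive log2 fold changes with IR in both genotypes, with medians of 0.36 in WT and 0.46 in the libraries labelled Tet2-/-. In the latter, 14 were higher at adjusted p alone, beside 22.9% of all genes, and 1 was called, Tars (1.13, threonyl-tRNA synthetase). In WT kidneys 0 were called by edgeR or DESeq2, 12 were higher at an unadjusted p under 0.05, which 3640 of all 16015 genes met in either direction, and 2 at adjusted p alone, beside 1.88% of all genes. Of 17 sensors, eIF2alpha kinases and phosphatase subunits, 3 rose with IR in the libraries labelled Tet2-/-, beside 12.7% of all genes, led by Creb3l3 (3.92) at a very low level (0.230 ± 0.115 FPKM after IR) and Ern1 (2.02). Ppp1r15a (GADD34), which directs the phosphatase to eIF2alpha and is also in the list of ATF4 targets, was higher between genotypes after IR (1.21), 1 of 17 beside 2.30% of all genes. The interaction was called for Creb3l3 (4.002) and Eif2ak4 (1.06), the kinase GCN2, 2 of 17 beside 9.18% of all genes.

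Of 18 genes of ER-linked apoptosis and calcium, 3 rose and 2 fell with IR in the libraries labelled Tet2-/-, close to the 12.7% and 11.6% of all genes. The calcium channel gene Itpr3 rose by 2.31 and the apoptosis effector Bak1 by 1.73, while the calcium pump gene Atp2a3 fell by 1.14 and Tmbim6 (Bax inhibitor 1) by 1.06. Itpr3 and Bak1 were also called between genotypes after IR (1.32 and 1.04), 2 of 18 beside 2.30% of all genes called higher, and the interaction was called for Itpr3 (1.73) and Bcap31 (-0.54), 2 of 18 beside 9.18% of all genes. None of 8 eIF2B and eIF2 genes was called in any comparison by edgeR or DESeq2, and 3 were higher both at adjusted p alone (22.9% of all genes) and at an unadjusted p under 0.05 (8480 of 16359 genes in either direction) with IR in the libraries labelled Tet2-/-. At baseline no gene of any of the 9 lists was called between genotypes by edgeR, at most 5 genes of a list had an unadjusted p under 0.05, beside 1891 of all 16086 genes, and DESeq2 called 2 over the 9 lists, beside 321 of all genes.

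**Figure D3:**
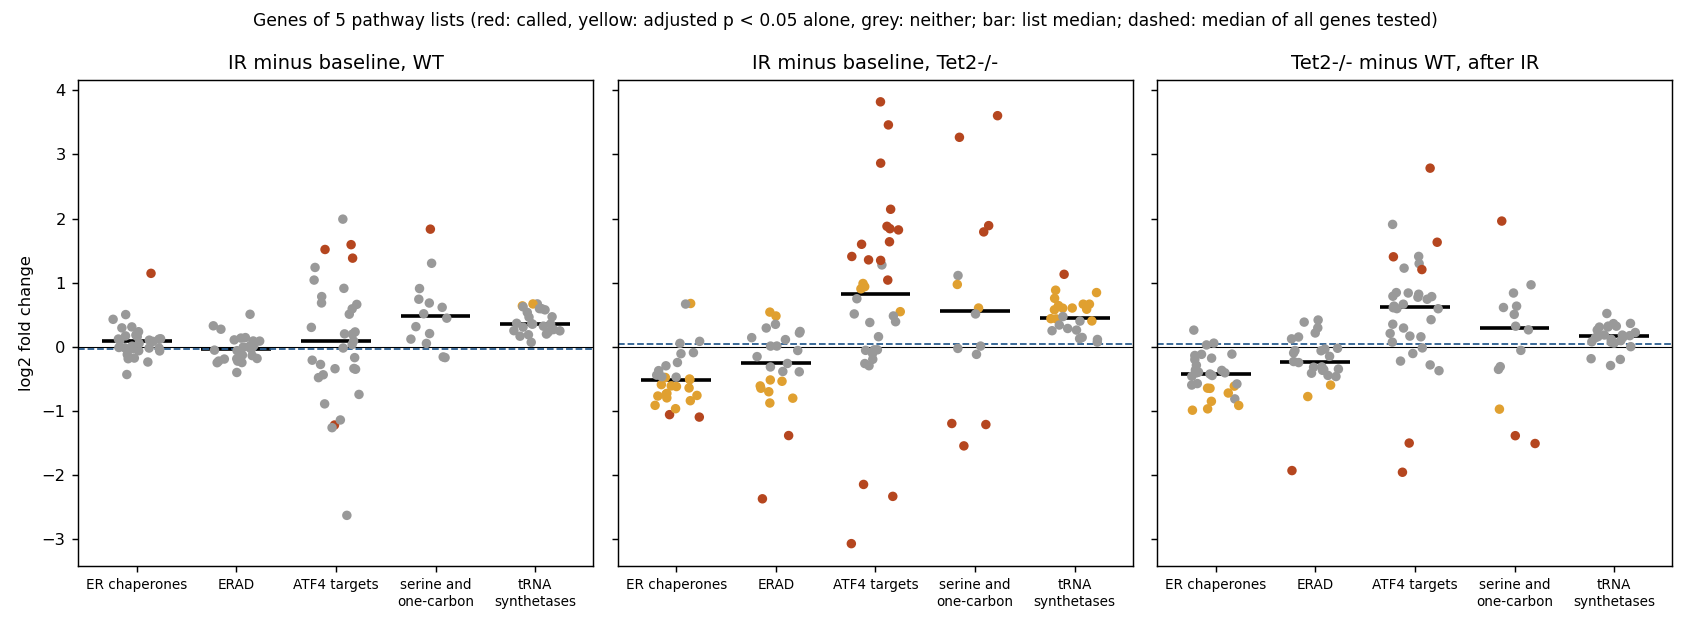
Log2 fold change (edgeR) of every tested gene in 5 pathway lists for the IR effect in WT, the IR effect in the libraries labelled Tet2-/- and the genotype difference after IR, with the list median as a bar and the median of all genes as a dashed line. The chaperone median is at -0.51 and -0.42 in the last 2 panels, and the ATF4 target median at 0.83 and 0.62.

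Over the 12 libraries, Pearson correlations of log2 CPM describe which genes varied alike. These points share group differences and cell composition, so the values are a description. Hspa5 and Sdf2l1 correlated at 0.872, Trib3 with Asns at 0.928 and with Chac1 at 0.871, and Atf4 with Trib3 at 0.854. Between Hspa5, Sdf2l1, Dnajb9, Herpud1 or Xbp1 and Atf4 or its targets the values had both signs, from -0.817 for Herpud1 with Trib3 to 0.574 for Xbp1 with Trib3. Dnajb9 was most like Xbp1 (0.75), and Ddit3 correlated with none of the other 9 above 0.29.

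**Figure D4:**
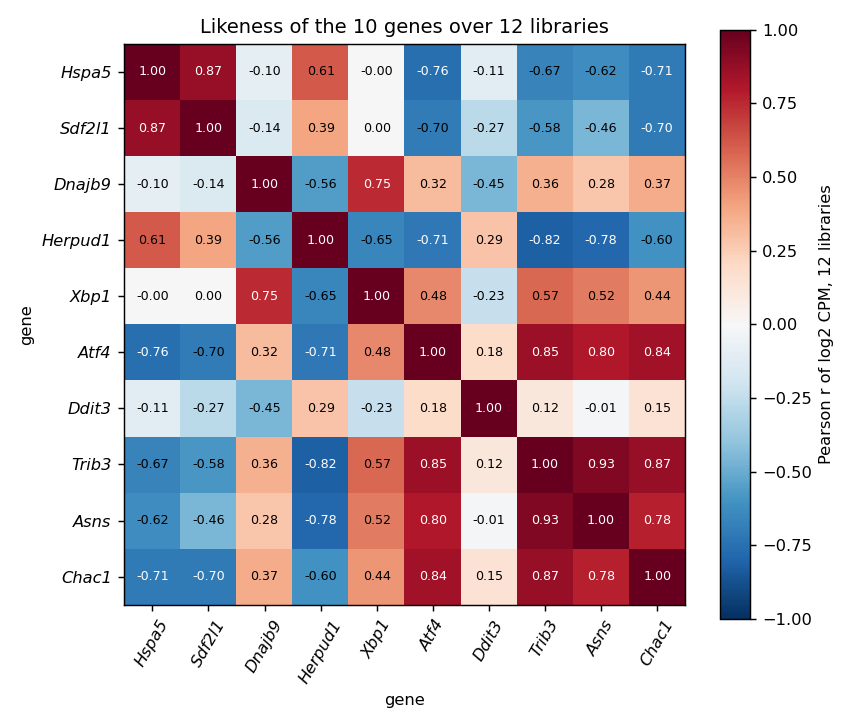
Pearson correlation of log2 CPM over the 12 libraries between each pair of the 10 genes, from -1 (blue) to 1 (red). The ATF4 targets with Atf4 form a block of positive values, and Hspa5 and Sdf2l1 are negative against it.

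Among 12877 genes with a mean of at least 1 FPKM in a group, the 5 most like Hspa5 over the 12 libraries were Asb11 (0.969), Dnajb12 (0.933), Uqcc1 (0.932), Hyou1 (0.925) and Stt3b (0.923). For Trib3 they were Ssh3 (0.951), Tnip2 (0.948), Rassf1 (0.948), Fjx1 (0.947) and 1110038B12Rik (0.945). Those most like Asns were Alg13 (0.987), Gm38431 (0.952), Ipo4 (0.945), Mthfd2 (0.939) and Suv39h1 (0.935).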

How the data were processed

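RNA-seq of whole kidneys was analysed in 12 libraries. The authors used STAR for alignment to mm9 and HOMER for counting on transcripts of RefSeq, with versions not given in the sources used here. They deposited estimated counts without normalization, in steps of 0.5 with 38.7% of values not whole, and FPKM of the same transcripts. Whole counts had been assumed, and these expected counts were therefore rounded for both count tests. The tables hold 34600 transcripts for 24421 symbols, and the transcript with the highest total stood for each of the 5569 symbols with several. Coordinates of transcripts are those of the files on mm9, and promoters are from RefSeq on GRCm38.p6.

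The 10 genes and the lists were chosen with earlier results of these data known. Counts were analysed with edgeR 4.0.16 (TMM, low count filter, quasi-likelihood F test, Benjamini-Hochberg over all genes tested, 6 libraries per comparison, 12 for the interaction) in R 4.3.3, with DESeq2 1.42.0 and limma 3.58.1 as alternatives, after tests on simulated data. Calls needed an adjusted p under 0.05 and, except for the interaction, an absolute log2 fold change over 1. Other list genes named are up to 2 called genes per direction, list and comparison with the largest log2 fold change. The exceptions are 8 chaperone genes chosen after their values were seen. A library is treated as 1 mouse, so p values measure the spread between libraries. A two-sided exact permutation test of 3 against 3 could not go below 0.1 and was not used. Same-numbered baseline and IR libraries of 1 genotype deviated together from their group means (correlations 0.349, 0.349 and 0.344 in WT, 0.12, 0.35 and 0.202 in Tet2-/-), although they come from different mice, so the fit with the replicate number as a block is given where it changes a call.

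Alternatives were DESeq2, its size factors in edgeR, library sizes alone, no filter, every deposited transcript, limma on log2 FPKM after adding 1 or 0.1, the block, all 12 libraries in a single fit, adjusted p alone, each library left out, and WT baseline replicates 2 and 3 both left out. The last of these leaves 1 WT baseline library, so only its effect sizes are given.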

Additional observations from a re-analysis of the deposited data

Results flagged for a closer look

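The IR effect of Herpud1 differed between genotypes by the test of the interaction, with a log2 difference of -1.55 (edgeR's adjusted p = 0.0172). It was lower after IR in 3 of 3 WT and 3 of 3 Tet2-/- libraries than in any baseline library of the genotype. In TMM-normalised counts this held for 14.51% of all genes in WT and 27.25% in the libraries labelled Tet2-/-.

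The same test, which 9.18% of all 16741 genes passed, picked out genes of the pathway lists. Of the 7 chaperone genes, all with negative values, Pdia4 (-1.20) and Calr (-1.18) had the largest. By edgeR, 2 of this list passed without WT IR replicate 3 and 3 without any 1 of 6 other libraries. Among ERAD and export genes they were Derl3 (-2.83), Rnf5 (-1.16), Ube2g2 (0.72) and Arfgap3 (-0.74). Of 3 ATF4 targets with positive values, Slc7a11 (2.95) and Slc38a2 (1.68) had the largest, and the 2 with negative values were Cth (-2.09) and Cbs (-1.81). Of 3 positive and 3 negative folate, serine and proline enzymes, the largest were Mthfd1l (2.40) and Psat1 (2.34), and Shmt1 (-1.62) and Shmt2 (-1.34). The remaining genes were Creb3l3 (4.002), Eif2ak4 (1.06), Itpr3 (1.73) and Bcap31 (-0.54).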

How the results depend on the processing

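The count of 4 genes called with IR in the libraries labelled Tet2-/- stayed between 4 and 6 under every alternative. With IR in WT it was 1, and became 2 with DESeq2, with the replicate block and with all 12 libraries in a single fit. It became 0 with limma on log2(FPKM + 1) and with each library left out (0 to 0). At baseline, 0 became 1 with DESeq2. After IR between genotypes, 2 became 4 with DESeq2, 1 with library sizes alone and 1 with the replicate block, where Sdf2l1 had an adjusted p of 0.0519, and ran from 0 to 6 with 1 library left out. In that comparison, same-numbered WT IR and Tet2-/- IR libraries correlated at -0.000229, 0.206 and 0.303. Whether the numbers pair them is not known. For the interaction, 1 became 3 with DESeq2, 2 with its size factors in edgeR, 2 with every deposited transcript and 2 with the replicate block, and ran from 1 to 2 with 1 library left out. The block changed no other call of the 10 genes. Fits that leave out libraries have fewer samples, and the share of all genes called in them is not given here. Otherwise the cause was not tested.

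Reversals of direction concerned values that passed no test. With 1 library left out, the log2 fold change with IR in WT ran from -0.62 to 0.0700 for Ddit3, -0.14 to 0.19 for Atf4, -0.46 to 0.88 for Chac1 and -0.002532 to 0.37 for Dnajb9. At baseline it ran from -0.12 to 0.20 for Atf4, -0.19 to 0.0329 for Xbp1, -0.17 to 0.30 for Hspa5 and -0.34 to 0.56 for Sdf2l1. After IR between genotypes it ran from -0.0733 to 0.31 for Dnajb9 and -0.18 to 0.13 for Xbp1, and for the interaction from -0.56 to 0.16 for Ddit3, -0.0514 to 0.28 for Xbp1 and -0.49 to 0.31 for Asns. Without WT baseline replicates 2 and 3, Atf4 was at -0.0458 with IR in WT and -0.009006 at baseline, Herpud1 at -0.0442 at baseline and Xbp1 at -0.0193 for the interaction. With library sizes alone, Atf4 was at -0.0343 at baseline, Xbp1 at 0.0707 after IR and Ddit3 at 0.12 for the interaction. With limma on FPKM plus 1 and plus 0.1, Hspa5 was at -0.0357 and -0.0361 and Atf4 at -0.0257 and -0.0257 at baseline, Xbp1 at 0.0832 and 0.0843 after IR, and for the interaction Ddit3 at 0.0342 and 0.0346 and Asns at 0.23 and 0.11.

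Over all genes, DESeq2 called 978 against 376 by edgeR with IR in WT, 321 against 2 at baseline, 1642 against 996 after IR between genotypes and 2810 against 1536 for the interaction.

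Library sizes alone moved the median log2 fold change of all genes from 0.04 to 0.27 with IR in the libraries labelled Tet2-/-, from 0.04 to 0.14 after IR between genotypes and from 0.10 to 0.24 for the interaction. Chaperone genes lower at adjusted p alone after IR, an alternative added after seeing the data, numbered 8, and 14 with DESeq2, 15 with all 12 libraries in a single fit and 5 with the replicate block. For the IR effect in the libraries labelled Tet2-/- they numbered 17, and 8 with limma on FPKM and 10 with library sizes alone, and for the interaction 7, and 15 with DESeq2 and 4 with library sizes alone, no filter or limma on FPKM.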

Other observations

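Of 10 exocrine pancreas markers, 8 were under 0.1 FPKM in every library. Plasma and B cell markers, 7 genes, summed to 0.811 to 6.53 FPKM, and of these Mzb1, an ER chaperone of antibody-secreting cells singled out after its values were seen, was called lower between genotypes after IR. Of 4 thick ascending limb markers, Umod made 80.4% to 96.0% of the summed FPKM, and had 354.2 FPKM in Tet2-/- IR replicate 3 against 642.4 to 2512 FPKM in the other libraries. The other 3 markers summed to 32.5 to 103.5 FPKM in Tet2-/- IR, 139.6 to 179.5 FPKM in WT IR and 120.9 to 315.4 FPKM in baseline libraries. Adrenal gland markers (1.36 to 3.83 FPKM) and skeletal muscle markers (0.509 to 1.66 FPKM) were low in all libraries, and 5 genes listed for liver, some also made in kidney, were mostly Cyp2e1, at 86.3% to 97.0% of the summed FPKM, and the other 4 summed to 7.53 to 29.1 FPKM after IR and 26.9 to 99.1 FPKM at baseline.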
